A study of Mus musculus with 11 samples.

Results

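The comparison is between 5 colon libraries of Tfam fl/fl Cd4 Cre recipients of CD4 T cell therapy and 3 of Tfam fl/fl Cd4 Cre mice left without it. It covers the 16781 of 22836 genes whose mean normalised read count over all 11 libraries of the series was at least 10. Tfam, the mitochondrial transcription factor A, packages and transcribes mitochondrial DNA, and Cre driven from Cd4 removes it from CD4 and CD8 T cells alike, because both pass through a stage that expresses Cd4. Both arms of the comparison therefore carry the same deletion, and they differ in the cells that were given. The donated CD4 T cells came from spleen and lymph nodes of young CD45.1 mice, 7 weeks old, and were injected behind the eye of recipients whose own leukocytes are CD45.2. The mice of this experiment were about 10 months old after the transfer, and gut tissue was examined 2 months after the injection, so the recipients were younger when injected. The non-transferred libraries are numbered 1, 3 and 4, and 3 libraries of Tfam fl/fl mice without Cre, called control here, serve as a reference level. The labels name no animal, so the p-values below measure the spread between these libraries.

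CD4 T cells are helper cells. They release cytokines that arm macrophages, call in neutrophils and set the state of the gut lining, and a subset that expresses Foxp3, the regulatory T cells, restrains them. Interferon gamma, made by T cells and innate lymphocytes, switches on antigen presentation in neighbouring cells, including the colon epithelium. The RNA was taken from whole colon, so the values hold epithelium, muscle, nerve, fat and leukocytes together. Donor and host T cells carry no mark in these values, and fewer cells of a type cannot be told apart from less RNA per cell.

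In transferred colon 2860 of the 16781 genes were higher than in non-transferred colon, which is 17.0% of those tested, and 2380 were lower, which is 14.2% (limma, adjusted p under 0.05). Among them, 1586 rose and 657 fell by more than 2-fold, whereas 53 rose and 84 fell by more than 8-fold. The median log2 fold change over all genes tested was -0.02. Fold changes are on the scale of log2(normalised count + 1), which understates the change of low genes. Each library held between 18362839 and 19178986 reads in genes. Leaving out non-transferred library 3 left 3078 genes called, and leaving out non-transferred library 4 left 3336. Tfam itself was read at 865, 1090.5, 1045, 1017 and 1086 normalised counts in transferred libraries 1 to 5, at 1054, 1102 and 1040.3 in non-transferred libraries 1, 3 and 4 and at 1083, 977 and 1018 in control libraries 1 to 3. The values overlapped in all groups, and since Cre acts in T cells while the reads come from every cell of the colon, they do not test the deletion. Values below follow the same order of libraries.

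Among the gene lists examined, the highest shares of falls were in genes of inflammation, and the highest shares of rises in genes of the muscular, nervous and fatty parts of the wall and of xenobiotic and fatty acid metabolism. The plot of gene lists sets the share of members that rose or fell in each list beside the share over all genes. The members of the lists were chosen from general knowledge of each cell type or pathway. Small counts were unstable: of 32 list counts of 1 to 3 members called in a direction, 26 moved by more than 1.5 times in at least 1 fit that left out a single library.

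**Figure D1:**
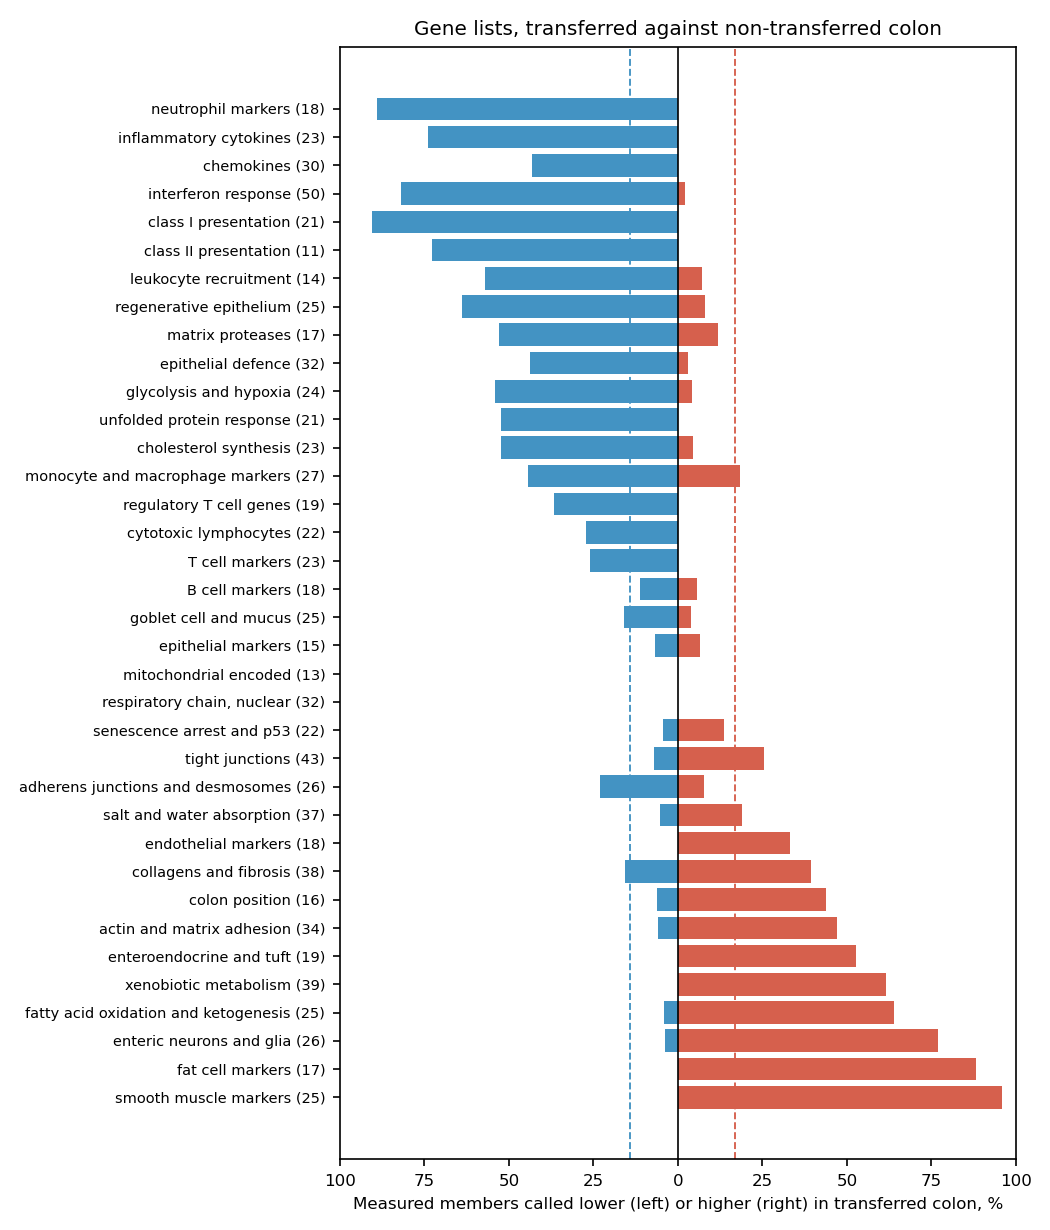
Share of the measured members of each gene list called higher (red, right) or lower (blue, left) in transferred than in non-transferred colon, in percent, with the number of measured members in parentheses. Dashed lines mark the shares over all genes tested, 17.0% higher and 14.2% lower. Neutrophil, cytokine, interferon and class I lists lie far to the left, and the smooth muscle, fat and nerve lists far to the right.

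Inflammatory cytokine genes fell together. Of 30 listed genes 23 were measured, and 17 of them were lower in transferred colon, none higher, with a median log2 fold change of -1.87. Of the 23, 7 passed the filter through the non-transferred libraries, their mean being under 10 in the other groups, and 10 of the other 16 were lower, with a median of -1.48. With a mean of at least 50 required, 9 were called lower. Ifng, which encodes interferon gamma, was read at 8.21, 2.01, 2.95, 7.62 and 2.19 normalised counts in the transferred libraries and at 30.3, 88.2 and 66.8 in the non-transferred ones, and it was listed at 0 in all 3 controls. Every transferred library lay below every non-transferred library, and the log2 fold change was -3.53 ± 0.50 (SE, limma adjusted p = 0.000619). Ifng is among the 7 that passed the filter through the non-transferred libraries, so it had to differ and its call gives no separate support. Tnf, the gene of the macrophage and T cell cytokine TNF, stood at 194, 178, 226, 244 and 122 in the transferred libraries and at 528, 798 and 771 in the non-transferred ones. The controls lay lower still, at 49, 16.9 and 73.9, so that Tnf fell (log2 fold change -1.87 ± 0.39, limma adjusted p = 0.00457) but stood above control by 2.22 on the log2 scale (adjusted p = 0.0295). The call of Tnf against control was lost without control library 1 or 2 or transferred library 1, 3 or 4 (adjusted p 0.0533 to 0.0975). Il1b, a cytokine released by activated myeloid cells, was 225, 67.4, 103, 114 and 65.7 against 848, 2190.3 and 811, with 32, 29.8 and 58.4 in control. Nos2, which makes nitric oxide in activated macrophages and epithelium, stood at 1954, 2123, 3151, 3111 and 1218 against 10609, 19768 and 20061 and control values of 480.4, 249 and 487. The Nos2 groups were separate in all 3 pairs, with transferred colon in the middle (log2 fold change -2.89 from non-transferred and 2.49 from control, adjusted p = 0.000241 and 0.012), though against control it did not pass without control library 2 (adjusted p = 0.0824). Il1a and Il36g, epithelial alarm cytokines of the interleukin 1 family, fell, with log2 fold changes of -4.20 and -4.53. Both had a mean under 50 over all libraries and may be among the 7 that passed the filter through the non-transferred libraries. Their calls therefore give no separate support. Il6, which drives the acute phase response, was at most 7.62 in a transferred library and ran from 11.7 to 87.2 in the non-transferred ones. Its log2 fold change of -3.16 (limma adjusted p = 0.0169) did not pass without non-transferred library 3 (adjusted p = 0.0982). Every transferred value of Il6 lay below the filter level of 10, so the other libraries carried it through the filter.

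Chemokines, which guide leukocytes into tissue, fell in part. Of 30 measured, 13 fell and none rose, with a median of -0.88. Of these, 3 passed the filter through the non-transferred libraries in the same way, and 10 of the other 27 fell, with a median of -0.58. Cxcl5, Cxcl2 and Cxcl3, attractants of neutrophils, had the largest falls of the list. Cxcl3 may be among the 3 that passed the filter through the non-transferred libraries, so its call gives no separate support. Cxcl5 was 23.7, 4.02, 7.86, 15.2 and 1.09 in the transferred libraries against 173, 423 and 1351, and Cxcl1, of the same kind, was 42, 5.03, 19.7, 19.1 and 11 against 97.9, 279 and 253. The log2 fold changes were -5.82 ± 0.79 for Cxcl5, -5.28 ± 0.65 for Cxcl2, -5.28 ± 0.46 for Cxcl3 and -3.52 ± 0.57 for Cxcl1 (limma adjusted p from 8.76e-05 to 0.00122). Cxcl9 and Cxcl10, which interferon gamma induces and which bind CXCR3 on effector T cells, fell, with log2 fold changes of -3.62 and -3.30. Cxcl10 was 282, 46.3, 134, 120.05 and 32.9 in the transferred libraries, 587, 967 and 1393 in the non-transferred ones and 27.3, 26.8 and 22.1 in control. Ccl5, a chemokine stored by T cells and NK cells, was not called. It was read at 354, 292, 308, 658 and 526 in the transferred libraries and 519.8, 616 and 415 in the non-transferred ones, which overlap (log2 fold change -0.33 ± 0.26, limma adjusted p = 0.363), and above control by 2.88 on the log2 scale (adjusted p = 0.000577). Ccl7, a monocyte attractant, was 65.7, 12.1, 27.5, 22.9 and 21.9 against 40.1, 86.2 and 55.8, with a log2 fold change of -1.14 that did not pass (limma adjusted p = 0.131), although without transferred library 1, the highest, it did (-1.47, adjusted p = 0.0424). Without non-transferred library 3 the number of chemokines called lower was 7 in place of 13.

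Neutrophil genes had the lowest median of the lists examined. Of 28 listed markers 18 passed the level filter, and 16 of them were lower and none higher, with a median of -3.48. Of the 18, 4 had a mean under 10 in both transferred colon and control, so that they passed through the non-transferred libraries and had to differ. Among the other 14, 12 were lower, with a median of -2.80. With a mean of at least 50 required, 9 were called lower. S100a8 and S100a9, the subunits of calprotectin, the main protein of the neutrophil cytosol, were at 2.74, 1.01, 7.86, 52.4 and 1.09 and at 11, 2.01, 6.88, 79.1 and 0 in the transferred libraries. The non-transferred libraries held 202, 1029 and 348 for S100a8 and 481, 1499 and 619.8 for S100a9. All transferred libraries were lower, and among them library 4 was far above the other four for both genes. Ly6g, the surface protein by which mouse neutrophils are sorted, was 8.21, 3.02, 12.8, 38.1 and 8.76 against 656, 1658 and 889, and 0 to 0.994 in control. It fell by 6.44 ± 0.61 on the log2 scale (limma adjusted p = 9.38e-05) and was above control (adjusted p = 0.0307), a call lost without transferred library 1 or 3 or any 1 control library (adjusted p 0.0676 to 0.146). Cxcr2, the receptor of the chemokines above, reached at most 2.74 in a transferred library and at least 31.8 in a non-transferred one. Every transferred value of Cxcr2 lay below the filter level of 10, so the other libraries carried it through the filter. This separation therefore gives no separate support. The number of markers called lower ranged from 14 to 16 when single libraries were left out.

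The genes through which leukocytes leave the blood moved the same way in part: 8 of 14 measured were lower and 1 was higher, with a median of -1.11. Icam1, the endothelial ligand of leukocyte integrins, fell by 1.90, and Itgal, its integrin partner, fell by 1.66 (limma adjusted p = 0.00281 and 0.009). Cd34, carried by capillary endothelium and stromal cells, was the member that rose, at 641, 540.2, 555, 488 and 391 against 385, 308 and 341, though not without non-transferred library 3 or 4 (adjusted p = 0.0890 and 0.0624). The number of members lower depended on the libraries, with 2 without non-transferred library 3, 4 without non-transferred library 4 and 5 without any 1 of transferred libraries 2 and 3 and non-transferred library 1.

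**Figure D2:**
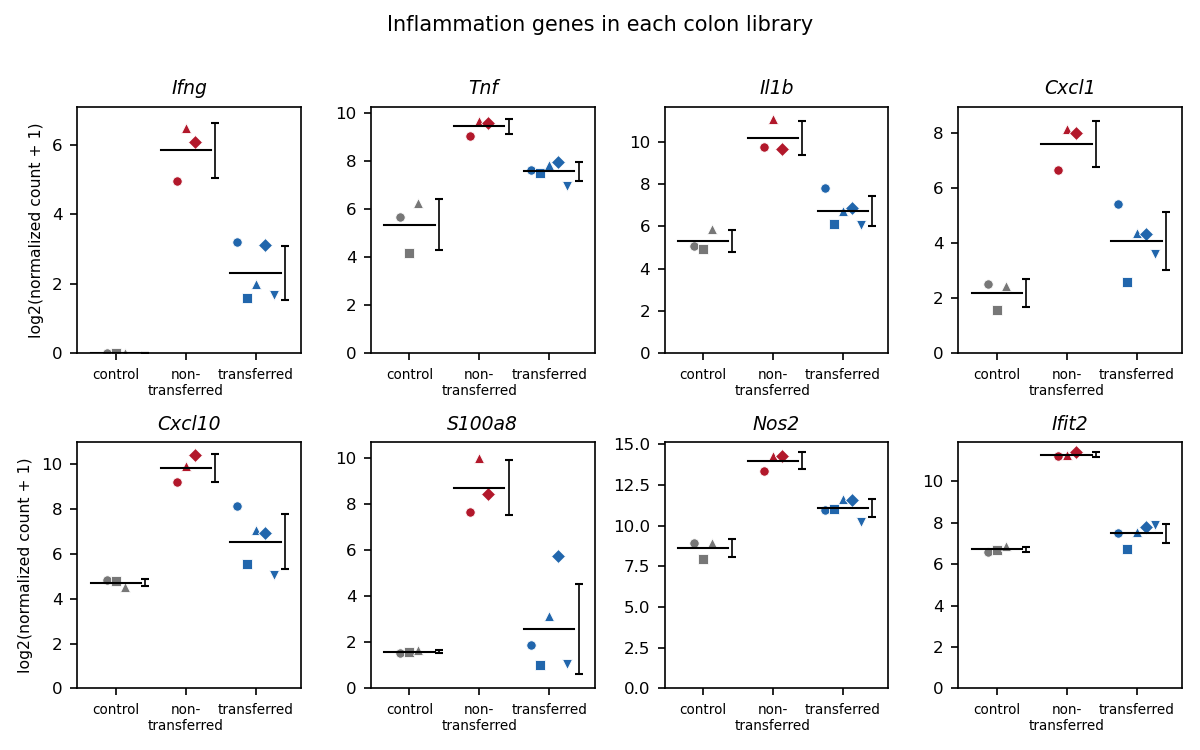
Normalised read counts of 8 inflammation genes, as log2(normalised count + 1), in every colon library of the control (grey), non-transferred (red) and transferred (blue) groups. Symbols mark the replicate number (circle 1, square 2, triangle 3, diamond 4, inverted triangle 5), horizontal lines the group mean and bars the SD. The transferred libraries lie below the non-transferred libraries for all 8 genes, and transferred library 4 is the highest transferred value for S100a8. Ifng passed the level filter through the non-transferred libraries.

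Most genes of the interferon response fell. All 50 listed genes were measured, 41 were lower and 1 was higher, with a median of -1.82, against -0.02 over all genes. Of the 50, 1 passed the filter through the non-transferred libraries, and 40 of the other 49 were lower. Ifit2, an interferon-induced protein that binds RNA and restrains its translation, had the smallest adjusted p of the list. It stood at 179, 106, 184, 222 and 239.8 in the transferred libraries and 2350.5, 2474 and 2727 in the non-transferred ones, beside 96.1, 103 and 115 in control. The log2 fold change was -3.80 ± 0.22 (limma adjusted p = 1.93e-05). Igtp and Irgm1, GTPases that attack vacuoles holding pathogens, and Gbp2, a guanylate binding protein with a like task, fell, with log2 fold changes of -3.05, -2.20 and -3.14. Igtp ran at 711, 449.7, 762, 951 and 505 in transferred colon, 3729, 6053 and 6933 in non-transferred colon and 236, 227 and 289.96 in control, so that the transferred values were separate from both. The member that rose was Irf7, the regulator of type I interferon, at 3395, 5661, 4716, 2877 and 8364 against 1927, 2264 and 2727, and 5822, 8261 and 15796 in control. Its call was weak (log2 fold change 1.03 ± 0.36, limma adjusted p = 0.047) and was lost when any of transferred libraries 2, 3 and 5, control library 2 or any non-transferred library was left out (adjusted p 0.0612 to 0.133).

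Genes of the interferon response are read from promoters that hold short elements named GAS and ISRE, and smooth muscle genes from promoters with a CArG box, the site of serum response factor. The promoters of Ifit2 and Igtp, the called interferon genes with the smallest adjusted p whose window held a GAS core, and of Myl9, the only called smooth muscle gene whose window held a CArG box, are shown because the falls and rises of these lists frame the comparison. Each window runs from 250 bases before to 50 bases after the RefSeq start and was taken from RefSeq on GRCm38.p6. The capitals mark the GAS core TTCNNNGAA in Ifit2, the same core and the ISRE core GAAANNGAA in Igtp, and the CArG box in Myl9.
Ifit2: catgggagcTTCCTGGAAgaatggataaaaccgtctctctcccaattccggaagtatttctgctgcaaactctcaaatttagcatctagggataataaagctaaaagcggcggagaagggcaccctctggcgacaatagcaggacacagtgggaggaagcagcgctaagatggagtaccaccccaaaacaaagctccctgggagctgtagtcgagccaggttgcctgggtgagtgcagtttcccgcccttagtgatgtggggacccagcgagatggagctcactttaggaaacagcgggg
Igtp: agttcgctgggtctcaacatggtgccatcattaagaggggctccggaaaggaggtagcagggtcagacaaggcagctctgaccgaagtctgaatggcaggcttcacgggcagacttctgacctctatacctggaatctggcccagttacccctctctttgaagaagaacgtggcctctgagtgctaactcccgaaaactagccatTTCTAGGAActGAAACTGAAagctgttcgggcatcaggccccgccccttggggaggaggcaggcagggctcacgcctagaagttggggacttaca
Myl9: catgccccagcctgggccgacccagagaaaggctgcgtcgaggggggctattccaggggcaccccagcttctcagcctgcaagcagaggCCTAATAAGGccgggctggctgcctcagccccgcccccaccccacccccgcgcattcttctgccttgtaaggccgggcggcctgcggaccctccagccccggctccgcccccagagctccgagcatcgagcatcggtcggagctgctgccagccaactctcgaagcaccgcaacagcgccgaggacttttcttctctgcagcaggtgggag
All 3 lie on the plus strand, at chr19:34550444-34550743 for Ifit2, chr11:58199306-58199605 for Igtp and chr2:156775214-156775513 for Myl9. On GRCm39, the build of the files, each has 1 exact match, at chr19:34527844-34528143, chr11:58090132-58090431 and chr2:156617134-156617433. The GAS core of Ifit2 begins at -241 from the start, and in Igtp the GAS core begins at -45 and the ISRE core at -34. Over both strands, the GAS core was found in 12 of the 32 interferon genes that had a RefSeq window, or 37.5%, and in 8.33% of the 11679 tested genes that had a window. A gene counted where any of its windows held the core. Ifit2 had 2 windows, and the window shown held at least as many matches as the other. The ISRE core was found in 21 of them, or 65.6%, against 8.78% of all. The CArG box was found in 2 of 21 smooth muscle genes with a window, or 9.52%, and in 1.59% of all. The cores can overlap each other, and a match describes letters in this window only.

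Antigen presentation genes fell, and 6 of the class II genes were higher than in control. Class II molecules show peptides to CD4 T cells. Of 11 class II genes 8 were lower and none higher, with a median of -1.19, while against control the median was 2.20 and 6 were higher, set beside the 1.14% of all genes that were higher than control. H2-Ab1, a chain of the class II molecule, was 9179, 6934, 9811, 11610.5 and 7515 in transferred colon, 19541, 18938 and 21174 in non-transferred colon and 1366, 1154 and 1960.3 in control. The 3 groups were separate. H2-DMb1, which loads the peptide, was 1061, 865, 1154, 1769 and 1006 against 3164, 3276 and 3754, and 106, 105 and 186 in control. The log2 fold change from non-transferred colon was -1.58 ± 0.23 (limma adjusted p = 0.000757), and it stood 3.14 above control on the log2 scale (adjusted p = 0.000141). Class I molecules show peptides to CD8 T cells, and 19 of 21 class I genes fell and none rose, with a median of -0.88. Tap1 and Tap2, which together form the pump that carries peptides to class I, fell, with log2 fold changes of -2.22 and -1.11, and Erap1, the peptidase that trims them, fell by 0.68 (limma adjusted p = 0.000182, 0.000226 and 0.000179). The number of class II genes called lower ranged from 6 to 8, and of class I genes from 17 to 19, when single libraries were left out. Against control at least 6 class II genes were higher in each of these fits.

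T cell genes varied from one transferred library to the next. Cd4, the coreceptor of the cells that were given, was read at 332, 80.5, 183, 345 and 137 in transferred libraries 1 to 5, 288, 263 and 358 in non-transferred colon and 49.9, 46.7 and 99.2 in control. Transferred libraries 1 and 4 reached the non-transferred range and library 2 came close to control, and Cd4 was not called against non-transferred colon (log2 fold change -0.68 ± 0.44, limma adjusted p = 0.261) or against control (1.59, adjusted p = 0.0872). Foxp3, the defining factor of regulatory T cells, ran at 45.6, 9.05, 29.5, 68.6 and 23 against 38.2, 30.03 and 24.1, and 7.54, 2.98 and 15.4 in control. The transferred values surround the non-transferred ones (log2 fold change -0.06 ± 0.59, limma adjusted p = 0.946), and the sign of this difference changed with the pseudocount, the tool and the libraries used. Foxp3 as a percentage of Cd4 was 13.7, 11.3, 16.1, 19.9 and 16.8 in the transferred libraries and 13.3, 11.4 and 6.73 in the non-transferred ones. The mean was 15.6% ± 3.26 (SD, n = 5) against 10.5% ± 3.37 (SD, n = 3), a difference of 5.08 percentage points with a p of 0.107 by an exact two-sided permutation test and of 0.160 when adjusted over the 3 ratios and shares tested. The smallest p that this design allows is 0.0357.

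Of 23 measured T cell markers 6 fell and none rose, with a median of -0.74, and against control the median was 1.50 with 9 higher, a number that ran from 0 without control library 2 to 18 without transferred library 2 and was 1 without transferred library 1 or control library 1 or 3, 3 without transferred library 3, and 5 without non-transferred library 3 or 4. Cd3d, a chain of the receptor complex, was 71.2, 31.2, 47.2, 135 and 58 against 180.1, 184 and 140.2 (log2 fold change -1.44 ± 0.39, limma adjusted p = 0.0158). Lat, the adaptor that relays the receptor signal, was 100.4, 52.3, 90.4, 261 and 76.7 against 243, 318 and 246, with transferred library 4 inside the non-transferred range (log2 fold change -1.42 ± 0.41, limma adjusted p = 0.0208). The median of the list relative to the non-transferred mean was -0.39, -1.60, -1.16, 0.02 and -0.95 in transferred libraries 1 to 5 and -2.56 to -2.21 in control. The count of T cell markers called lower was 15 without transferred library 4, 3 without any 1 of transferred libraries 2 and 3 and non-transferred library 1, 2 without non-transferred library 4 and 0 without non-transferred library 3, where Cd3d and Lat also lost their calls (adjusted p = 0.0636 and 0.0861). Lat lost its call without non-transferred library 4 as well (adjusted p = 0.0564). The summed normalised count of the T cell markers was 1652 to 4038 in transferred colon, 3735 to 4219 in non-transferred colon and 1214 to 1369 in control, and no marker was at 0 throughout. Only 3 of 36 T cell receptor segments passed the level filter, and 1 of them was lower.

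Cytotoxic lymphocyte genes gave a similar count: 6 of 22 measured were lower, none higher, with a median of -0.76 from non-transferred colon and 1.56 from control, where 9 were higher. That number was 2 without control library 2, 3 without control library 1 or transferred library 1, 4 without control library 3 and 15 without transferred library 2. Il2rb, the interleukin 2 receptor chain of effector lymphocytes, was 204, 82.5, 121, 243 and 152 against 339.7, 432 and 387, and 65.9, 37.8 and 47.4 in control. The log2 fold change from non-transferred colon was -1.35 ± 0.31 (limma adjusted p = 0.00739). Zbp1, a sensor of nucleic acid that is also induced by interferon, fell by 1.82. Cd8a, chosen for mention after its values were seen, was 88.4 to 220.1 in transferred libraries and 173 to 239 in non-transferred ones and did not pass (log2 fold change -0.46, limma adjusted p = 0.201). The count of members lower was 12 without transferred library 4 and 3 without any 1 of transferred libraries 2 and 3 and non-transferred libraries 3 and 4. Of 19 regulatory T cell genes 7 fell and none rose, with a median of -0.87. They included Tnfrsf9, a costimulatory receptor of activated T cells (fell by 2.38), Gata3 (fell by 1.90) and Capg, an actin capping protein also made by macrophages (fell by 1.13), while Foxp3 was not among them. Without non-transferred library 3 the number was 3, and without transferred library 3 or non-transferred library 4 it was 4. Checkpoint genes, which dampen T cells, gave 7 lower of 14 with a median of -0.85. Cd274, the ligand PD-L1 that interferon induces on many cells, was 274, 379, 308, 393 and 409.6 against 944, 1476 and 1601 (log2 fold change -1.90 ± 0.19, limma adjusted p = 0.000128), and Pdcd1, its receptor on T cells, was 21.9, 12.1, 10.8, 14.3 and 6.57 against 53.8, 83.3 and 39.4 (-2.11 ± 0.38, adjusted p = 0.00213). Without non-transferred library 3 the checkpoint count was 4. Among 10 genes of naive T cells 1 fell and 1 rose. Satb1, a chromatin organiser of T cells and epithelium, rose by 0.61 (limma adjusted p = 0.0405), a call lost in most of the fits that left out 1 library (adjusted p up to 0.110), and 8 genes were not called.

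**Figure D3:**
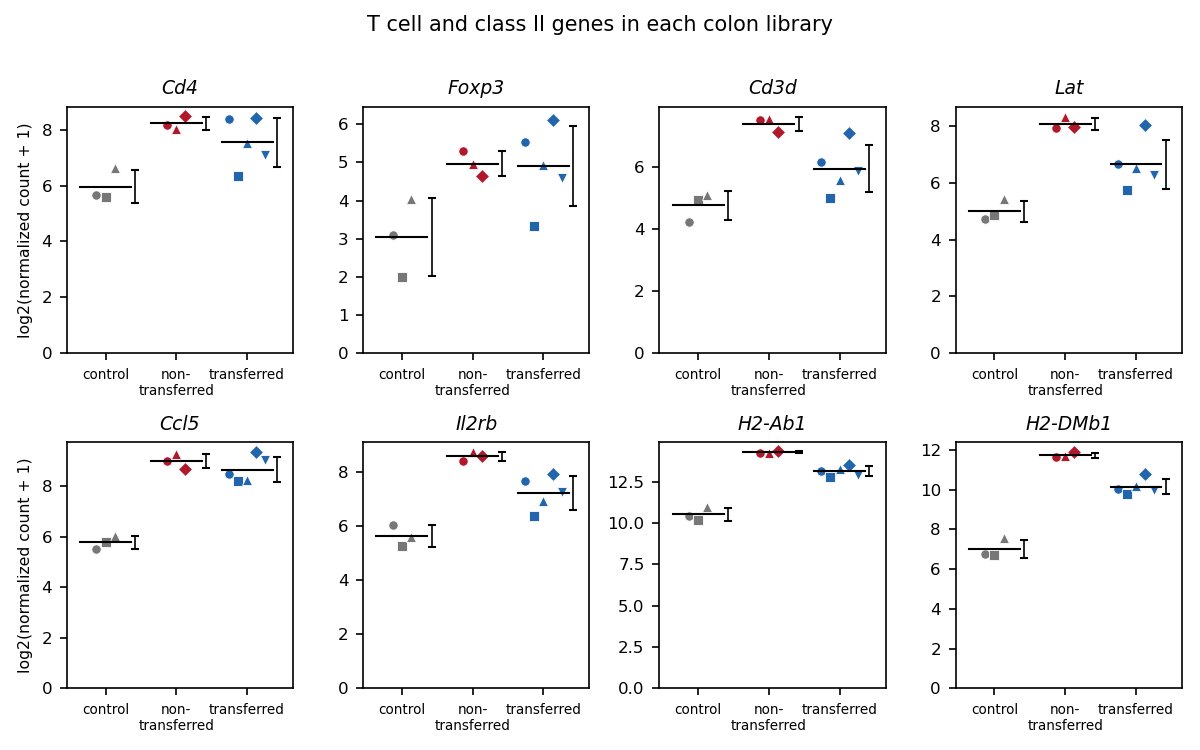
Normalised read counts of 6 T cell genes and 2 class II genes, as log2(normalised count + 1), in every colon library, with colours, symbols, mean lines and SD bars as in the plot of inflammation genes. Transferred libraries 1 and 4 (circle and diamond) reach the non-transferred values for Cd4, whereas for H2-Ab1 and H2-DMb1 all transferred libraries lie between the other groups.

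Macrophage genes divided. Of 27 measured 12 fell, or 44.4% beside 14.2% of all genes, with a median of -0.56. The 5 that rose are 18.5%, near the 17.0% of all genes. Cd14, the endotoxin coreceptor of inflammatory monocytes, was 927, 804, 1060.3, 1311 and 880.5 against 2136, 2863 and 2064 (log2 fold change -1.24 ± 0.17, limma adjusted p = 0.000565), and Aif1, a macrophage calcium binding protein, fell by 1.41. The genes that rose were Folr2, Lyve1, Cd163, Cd209a and Mrc1. Of them 2, Folr2 and Cd209a, had a non-transferred mean under 10, so that they passed the filter through the other groups. Folr2, the folate receptor of resident macrophages, was 74.8, 53.3, 37.3, 37.2 and 54.8 against 2.94, 3.88 and 10.9, with 26.4, 72.6 and 51.8 in control, and did not overlap (log2 fold change 3.05 ± 0.42, limma adjusted p = 0.000566). Because of the way Folr2 passed the filter, this separation gives no separate support. Lyve1, also a gene of lymphatic vessels, was 391, 370.2, 285, 259 and 327 against 142, 119 and 106 (1.40 ± 0.20, adjusted p = 0.000715). Without non-transferred library 3 only 3 members were called lower, and without non-transferred library 4 the number higher was 3. Itgax, the integrin chain CD11c of dendritic cells, fell by 1.83 (limma adjusted p = 0.00214) in a list of 14 in which 4 fell and 1 rose, or 9 fell without transferred library 4. The member that rose, Cd209a, lost its call without transferred library 1 or 3 or non-transferred library 4 (adjusted p 0.0545 to 0.0824). None of 10 mast cell and eosinophil genes was called by limma, edgeR or DESeq2, and 2 had a raw limma p under 0.05.

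Few B cell and plasma cell genes were called. Of 18 B cell markers 2 fell and 1 rose, and of 26 plasma cell and antibody transport genes 4 fell and none rose, with medians of -0.94 and -0.69. The falls are 11.1% and 15.4% of the members, near the 14.2% of all genes. No B cell marker was called in either direction without non-transferred library 3, and the number lower was 1 without transferred library 2, 3 or 4 or non-transferred library 1 or 4. Tnfsf13b, the B cell survival factor BAFF, which myeloid cells make, was 209, 230.4, 224, 309 and 274 against 514, 486 and 357 and fell by 0.86 (limma adjusted p = 0.00322). Of 195 immunoglobulin variable segments 155 were measured, and 22 were lower and none higher, with a median of -1.32. The 22 are 14.2% of the segments measured, the same share as over all genes. Segments are near copies of one another, so reads can be split between them. Of 19 germinal centre and follicle genes 6 fell, among them Tnfsf11, the cytokine RANKL, at 20.1, 6.04, 12.8, 19.1 and 12 against 91, 80.4 and 60.2 (-2.46 ± 0.38, limma adjusted p = 0.00101), and without non-transferred library 3 the number was 3. The plasma cell count was 1 without non-transferred library 3 or 4 and 2 without transferred library 2 or 5 or control library 3.

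Epithelial defence genes fell in part, and their levels differed widely among the transferred libraries. Of 32 defence genes 14 fell and 1 rose, with a median of -1.01. Retnlb, a goblet cell protein that keeps bacteria off the lining, was 1967, 2764, 3512, 4974 and 4048 against 17627, 26841 and 15643, close to 1923, 2264 and 5207 in control (log2 fold change -2.57 ± 0.35, limma adjusted p = 0.000545). Lcn2, which withholds iron from bacteria and is made by neutrophils as well, fell by 3.92. Reg3b and Reg3g, antibacterial lectins named here after their values were seen, ran from 12169 to 200985 and from 5766 to 75615 in transferred colon and from 311091 to 646634 and from 125066 to 353560 in non-transferred colon, and their reads can be shared because the genes are close relatives. The member that rose was Reg4, a lectin of the deep secretory cells, and its transferred values scattered over 1815, 5770.4, 169, 3578 and 14408 against 195, 80.4 and 82.1 and 11304, 15951 and 15123 in control. Transferred library 3 lay among the non-transferred values and library 5 near control. The defence count was 5 without non-transferred library 3 and 9 without non-transferred library 4.

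Genes of regenerative epithelium, a wound state in which crypts take on a foetal pattern, fell in 16 of 25 cases and rose in 2, with a median of -1.21. Of the 25, 1 (Mmp10) passed the filter through the non-transferred libraries, and 15 of the other 24 fell, with a median of -1.13. Anxa8, an annexin of that state, was 63.9, 37.2, 41.3, 49.5 and 20.8 against 341, 849.6 and 897, and 44.3, 34.8 and 24.3 in control (log2 fold change -3.96 ± 0.39, limma adjusted p = 0.000106). Ly6a, the surface marker of those crypts, fell from 17663, 31027 and 30869 to 4253, 2772, 6781, 8024 and 3852, with 1616, 1085 and 1842 in control. Ccn2 and Hbegf, a matrix growth factor and an epidermal growth factor ligand, rose by 1.06 and 0.84 on the log2 scale. Hbegf was not called without non-transferred library 1 (adjusted p = 0.0653). In the list of 18 stem cell genes 4 rose and 1 fell, or 3 fell without transferred library 1 or non-transferred library 4. The 4 are 22.2%, near the 17.0% of all genes. Nkd1, a target and brake of Wnt signalling, rose from 189, 157 and 132 to 475, 559, 596, 384 and 479.7, and Ascl2, the factor that sets stem cell identity, rose by 1.16 ± 0.21 (limma adjusted p = 0.00229). Cell cycle genes had log2 fold changes below 0 in 34 of 34 cases, with a median of -0.32, but only 7 were called. The 7 are 20.6%, beside 14.2% of all genes. Without non-transferred library 3 or 4 limma called 0, and without transferred library 2 or 3 it called 2. Top2a, which untangles replicated DNA, was 1864, 1109, 1690.2, 1892 and 1932 against 2109.6, 3188 and 2499.

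Junction genes, which seal the epithelium, were mostly not called. Ocln, which encodes the tight junction protein occludin, was 1231, 1771, 1482, 1342 and 1397 in the transferred libraries, 1056, 832 and 1036 in the non-transferred ones and 1598, 1829 and 1402 in control. All transferred values exceeded all non-transferred values (log2 fold change 0.56 ± 0.13, limma adjusted p = 0.00826), though without non-transferred library 3 the adjusted p was 0.0511. Tjp1, the gene of the scaffold ZO-1, was 1212, 1448, 1214, 1462 and 1771 against 1498, 1665 and 1821 (log2 fold change -0.24 ± 0.13, limma adjusted p = 0.182). It was called lower without transferred library 5 (-0.32, adjusted p = 0.0432). Cldn1 stayed under 25 normalised counts in every library and was not called (log2 fold change 0.29, limma adjusted p = 0.692). Of 43 tight junction genes 11 rose and 3 fell, with a median of 0.15. These are 25.6% and 6.98%, beside 17.0% and 14.2% of all genes. The number lower was 0 without transferred library 1 or non-transferred library 1 or 4, and 1 without transferred library 3 or 4 or non-transferred library 3. Those that rose with the smallest adjusted p were Mpdz, a scaffold (from 101, 79.4 and 61.3 to 178, 292, 222, 189 and 202), Jam3, an adhesion molecule of endothelium and muscle as well as epithelium, and Prkcz, a polarity kinase, with log2 fold changes of 1.42, 1.14 and 0.63 (adjusted p = 0.000806, 0.0012 and 0.00235). In adherens junctions and desmosomes 6 of 26 fell and 2 rose, or 23.1% and 7.69%, beside 14.2% and 17.0% of all genes. Cdh1, the epithelial cadherin, fell by 0.62 and Dsc2, a desmosomal cadherin, fell by 0.61 (limma adjusted p = 0.00576 and 0.00561). The number lower was 11 without transferred library 5, 3 without non-transferred library 3 and 2 without non-transferred library 4.

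Genes of absorptive cells were called in both directions. Car1, a carbonic anhydrase of surface colonocytes, was 208908, 322365, 205198, 160117 and 502627 in transferred colon against 114797, 49234 and 74051 and 283525, 411197 and 467708 in control (log2 fold change 1.78 ± 0.41, limma adjusted p = 0.0071). Car2, its relative, and Guca2a, the hormone guanylin that adjusts chloride secretion, rose by 2.13 ± 0.37 and 1.29 ± 0.26 (limma adjusted p = 0.00169 and 0.00399). Clca4b, of the family of calcium-activated chloride channel regulators, moved the other way, at 669.9, 463, 1656, 7972 and 1114 against 34121, 48060.5 and 50468, and 127, 33.8 and 36.4 in control. The log2 fold change from non-transferred colon was -5.01 ± 0.76 (limma adjusted p = 0.000905). In the list of 37 genes for salt and water 7 rose, or 18.9%, near the 17.0% of all genes, and 2 fell, and 3 or 4 rose without any 1 of transferred libraries 2 and 5 and non-transferred library 3. The broad epithelial markers did not move as a group, with 1 of 15 higher and 1 lower and a median of -0.17. Muc2, the gel-forming mucin of goblet cells, was 453872, 239014, 298075, 285033 and 44381 in transferred colon and 279249.98, 280382 and 170803 in non-transferred colon. Transferred library 5 was the lowest of all and library 1 the highest (log2 fold change -0.18 ± 0.67, limma adjusted p = 0.866), and the difference changed sign without library 5 (0.38). Of 25 goblet and mucus genes 4 fell and 1 rose, with 2 lower without transferred library 2 or 3 or non-transferred library 3. The 4 are 16%, near the 14.2% of all genes.

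Some of the largest rises were of epithelial genes whose transferred values were far apart. Gal3st2c, a sulphotransferase, was 203, 2295, 17.7, 532 and 6764 in the transferred libraries against 7.83, 0.969 and 3.29 and 2863, 7098 and 7581 in control, with a log2 fold change of 6.89 ± 1.47 (limma adjusted p = 0.0051). Muc16, a transmembrane mucin, was 47.5, 202, 20.6, 61 and 514 against 0, 11.6 and 0, and 227, 478 and 745 in control. For both genes transferred library 5 was highest and library 3 lowest. Both had a non-transferred mean under 10, so they passed the filter only through the groups where they were high. Their calls therefore give no separate support. Hormone and tuft cell genes rose in 10 of 19 cases with none lower and a median of 0.94. Chga, which packs hormone granules, was 1644, 1939.6, 2003, 1142 and 583 against 429.8, 180.2 and 457, and Scg2, of the same family and also found in neurons, was 252, 485, 332, 193 and 287 against 163, 89.1 and 35 (log2 fold change 2.02 ± 0.49 and 1.87 ± 0.45, limma adjusted p = 0.00948 and 0.00893). Only 1 member was called without non-transferred library 3, where Chga had an adjusted p of 0.0561, and 6 were called without transferred library 1 or 3 or non-transferred library 4.

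Genes of the muscle of the gut wall rose together. All 25 smooth muscle genes were measured, 24 rose and none fell, with a median of 1.68 from non-transferred colon. Against control 11 of the 25 were lower (median -0.80), where 0.453% of all genes were lower. The number below control was 0 without control library 2, 1 or 2 without control library 1 or 3 or transferred library 1, 4 or 5 without transferred library 3 or 4, 7 without non-transferred library 4 and 16 without transferred library 2. Myl9, the regulatory light chain of smooth muscle myosin, was 12098, 16142, 14857, 10343 and 12513 in transferred colon, 4445, 3023 and 3138 in non-transferred colon and 22659, 26602 and 21358 in control, so that the 3 groups were separate. Its log2 fold change was 1.90 ± 0.17 from non-transferred colon (limma adjusted p = 8.76e-05) and -0.85 from control (adjusted p = 0.0345), the latter lost without transferred library 1, 3 or 4 or any 1 control library (adjusted p 0.0587 to 0.209). Smtn, Tpm2 and Lmod1, which bind actin filaments in contractile cells, rose by 1.89, 1.80 and 2.03. Actin and matrix adhesion genes, a list that shares cytoskeletal parts with muscle, rose in 16 of 34 cases and fell in 2, led by Tns1, which ties actin to integrins (log2 fold change 2.02 ± 0.14, limma adjusted p = 5.10e-05). Of the 16, 1 had a non-transferred mean under 10, so that it passed the filter through the other groups. The members that fell were Vasp and Ldb3, which both lost their calls when transferred library 1 or 2 or non-transferred library 3 or 4 was left out (adjusted p up to 0.128 and 0.121). The summed normalised count of the smooth muscle list was 145884 to 229445 in transferred colon, 53261 to 74359.5 in non-transferred colon and 324078 to 406205 in control.

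Enteric nerve genes rose in 20 of 26 cases, with a median of 1.59. Of the 20, 1 had a non-transferred mean under 10, so that it passed the filter through the other groups. Nefl, the neurofilament light chain, was 189.8, 297, 274, 186 and 288 against 39.2, 24.2 and 32.9, and 339, 519.9 and 294 in control (log2 fold change 2.90 ± 0.24, limma adjusted p = 7.67e-05). The glial genes S100b and Sox10 rose by 2.85 and 1.60. The exception was Tac1, the precursor of substance P, which fell from 457, 738 and 1134 to 209.9, 247, 298, 249.6 and 231 (-1.56 ± 0.31, limma adjusted p = 0.00341). Among 11 genes of the pacemaker cells that pace the muscle, 4 rose, or 2 without non-transferred library 3 or 4. Kcnn3, a potassium channel of the neighbouring fibroblast-like cells, rose by 1.68 (adjusted p = 0.00359).

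Fat cell genes rose in 15 of 17 cases, with a median of 2.21 and none lower, and 2 of the 15 passed the filter through the transferred and control libraries. Adipoq, the fat hormone adiponectin, was 829.7, 316, 333, 489 and 285 against 1.96, 39.7 and 105, and 291, 464 and 1075 in control, and Plin1, the coat of the lipid droplet, was 491, 246, 148, 286 and 159.9 against 0, 11.6 and 67.9, and 132, 264 and 619 in control. The non-transferred values were scattered, with library 1 lowest and library 4 highest for both genes, and did not overlap the transferred ones (log2 fold change 4.15 ± 0.91 and 4.67 ± 1.04, limma adjusted p = 0.00577 and 0.0064). Plin4, of the same family, was more even, at 862, 814, 680.02, 797 and 654 against 178, 114 and 210.2 (log2 fold change 2.21 ± 0.18, adjusted p = 7.67e-05). Genes of position along the gut moved beside those of the wall: of 16 measured, 7 posterior Hox genes rose and Gata4, a factor of the small intestine, fell. Of the 7, 1 had a non-transferred mean under 10, so that it passed the filter through the other groups. Hoxd9 was 217, 181, 239, 162 and 203 against 113, 81.4 and 105 (1.00 ± 0.16, limma adjusted p = 0.00116). Hox genes are made mainly by the mesenchyme of the wall, and the part of the place of sampling in the muscle, nerve and fat results was not tested. The fall of Gata4 was not called without non-transferred library 3 or 4 (adjusted p = 0.0516 and 0.0639). Gata4 passed the level filter through the non-transferred libraries, so it had to differ.

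Endothelial genes rose in 6 of 18 cases and none fell. They were Flt4, the receptor of lymphatic vessels (from 106, 89.1 and 82.1 to 247, 223, 192, 200.1 and 225, log2 fold change 1.23 ± 0.16, limma adjusted p = 0.000393), the junction protein gene Cldn5, Tek and others. Collagens and fibrosis genes rose in 15 of 38 cases, or 39.5% beside 17.0% of all genes, with a median of 0.33. The 6 that fell are 15.8%, near the 14.2% of all genes. Postn, a matrix protein of wounds and of muscle layers, was 4032, 3421, 3129, 3257 and 3273 against 1397, 807 and 1292, and 4363, 5467 and 3541 in control (log2 fold change 1.59 ± 0.18, limma adjusted p = 0.000213), and the genes of all 3 chains of collagen VI, Col6a1, Col6a2 and Col6a3, rose by 1.06, 0.99 and 0.90. Lox, the enzyme that crosslinks collagen, and Ltbp2, which binds fibrillin, fell, with log2 fold changes of -1.70 and -1.63 (adjusted p = 0.00431 and 0.00276). Without non-transferred library 3 the number of fibrosis genes lower was 3. Of 17 matrix protease genes 9 fell and 2 rose. Mmp10, which wound epithelium and macrophages secrete, was 13.7, 3.02, 8.84, 6.67 and 2.19 against 411, 2018 and 348, and 1.88, 1.99 and 2.21 in control, one of the largest falls of all genes (log2 fold change -6.61 ± 0.61, limma adjusted p = 9.38e-05). Its mean was under 10 in transferred colon and control, so it passed the filter through the non-transferred libraries and had to differ. Among the other 16 members 8 fell, with a median of -0.73. Of 25 fibroblast and niche genes 5 rose, or 20%, near the 17.0% of all genes, and none fell. Chrdl1, a secreted antagonist of BMP signals, was 94.9, 109, 83.5, 100.04 and 117 against 29.4, 21.3 and 15.3 (log2 fold change 2.18 ± 0.21, limma adjusted p = 9.38e-05).

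**Figure D4:**
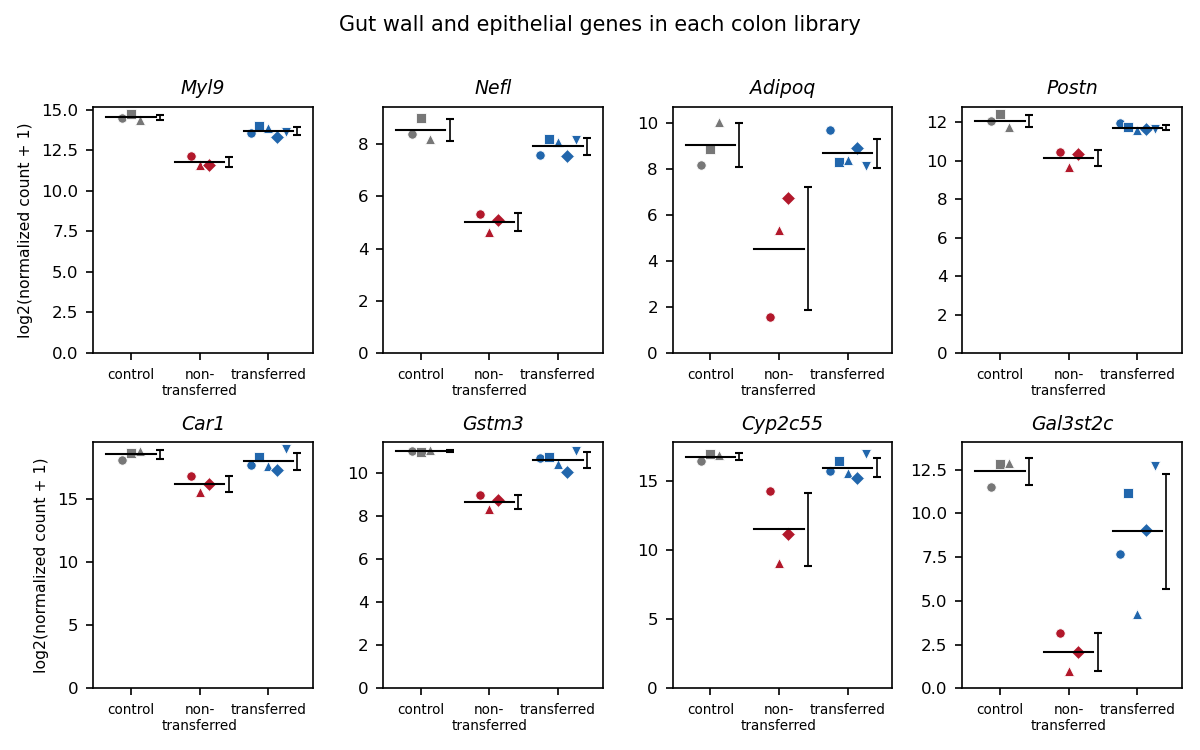
Normalised read counts of 4 gut wall genes (Myl9, Nefl, Adipoq, Postn) and 4 epithelial genes (Car1, Gstm3, Cyp2c55, Gal3st2c), as log2(normalised count + 1), in every colon library, with colours, symbols, mean lines and SD bars as in the plot of inflammation genes. All transferred libraries lie above all non-transferred libraries in the 8 panels, and they spread most for Gal3st2c. Gal3st2c passed the level filter through the transferred and control libraries.

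The share of reads from the mitochondrial genome was higher in transferred colon. It was 4.65%, 4.35%, 4.62%, 3.84% and 4.82% in transferred libraries 1 to 5, 3.44%, 2.55% and 2.95% in the non-transferred libraries and 5.17%, 4.63% and 6.73% in control. No transferred library overlapped the non-transferred ones, and the difference of 1.48 percentage points gave p = 0.0357 by an exact two-sided permutation test, the smallest that 5 against 3 libraries can give, or 0.107 adjusted over the 3 quantities tested this way. Gene by gene none of 13 mitochondrial transcripts was called by limma, 4 had a raw p under 0.05 and edgeR and DESeq2 each called 1, while 12 had a log2 fold change above 0 and the median was 0.34. None of the 32 measured nuclear genes of the respiratory chain was called by limma, edgeR or DESeq2, and 1 had a raw limma p under 0.05 (median -0.04). Of 15 genes that maintain mitochondrial DNA only Ppargc1a, a coactivator of mitochondrial biogenesis, rose, at 149.7, 141, 142, 136 and 134 against 118, 75.6 and 63.5 (log2 fold change 0.75 ± 0.19, limma adjusted p = 0.0128), and not without non-transferred library 3 or 4 (adjusted p = 0.0597 and 0.0677).

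Genes of fuel use rose or fell by pathway. Of 25 genes of fatty acid oxidation and ketone synthesis 16 rose and 1 fell, with a median of 0.52. Acaa2, a thiolase of mitochondrial oxidation, was 3475, 4634, 4136, 3948 and 5331 against 2542, 1617 and 2324, and 5013, 5479 and 5922 in control (log2 fold change 1.00 ± 0.16, limma adjusted p = 0.0012). Ehhadh, a step of peroxisomal oxidation, rose by 1.31, while Acadl, a dehydrogenase of long chains, fell by 0.53. Glycolysis and hypoxia genes fell in 13 of 24 cases and rose in 1. Pfkfb3, which speeds glycolysis, Slc16a3, the lactate exporter, and Hif1a, the hypoxia factor, fell, with log2 fold changes of -2.19, -2.73 and -1.85 (limma adjusted p = 0.000437, 0.000658 and 0.000888). Hif1a was 690.02, 919, 744, 1147 and 1706 against 3141, 3599 and 3925, and 492, 626 and 945 in control. Cholesterol synthesis genes fell in 12 of 23 cases and rose in 1, with Sqle, which oxidises squalene, at 2389.5, 2040.2, 2099, 2551 and 2084 against 2881, 2863 and 3164 (log2 fold change -0.42 ± 0.09, limma adjusted p = 0.00656).

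Xenobiotic metabolism, the handling of foreign compounds by epithelium, rose in 24 of 39 measured genes and fell in none, with a median of 1.10. Of the 39, 5 had a non-transferred mean under 10, so that they passed the filter through the other groups, and 3 of these are among the 24. Cyp2c55, a cytochrome P450 of colonocytes, was 54923, 89052, 49924, 38361 and 126327 against 19876, 543 and 2281, and 91188, 128233 and 125219.9 in control (log2 fold change 4.49 ± 0.86, limma adjusted p = 0.00294). Cyp4b1, another P450, was 497, 876, 317, 142 and 510.3 against 42.1, 8.72 and 16.4 and stayed below its control values of 3161, 3713 and 2201. Gstm3, a glutathione transferase, rose by 1.92 ± 0.20 (limma adjusted p = 0.000142). Genes of the unfolded protein response, which secretory cells use to fold their load, fell in 11 of 21 cases, with log2 fold changes of -0.59 for Hsp90b1, a chaperone, and -0.56 for Dnajc3, a cochaperone of the endoplasmic reticulum (limma adjusted p = 0.00247 and 0.000925). That count was 5 without non-transferred library 3 and 6 without non-transferred library 4.

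Arrest and damage genes, which the design bears on because T cells without Tfam are studied as a driver of senescence, were mostly not called. Of 22 measured 3 rose and 1 fell, with a median of 0.07. These are 13.6% and 4.55%, below the 17.0% and 14.2% of all genes. The number higher was 1 without non-transferred library 3 and 0 without non-transferred library 4, and the number lower was 0 without transferred library 1 or 3 or non-transferred library 3 or 4. Cdkn1a, the cycle inhibitor p21, was 4223, 4845, 3566, 4294 and 5493 against 3315, 4485 and 6405 (log2 fold change -0.04 ± 0.20, limma adjusted p = 0.895), and Trp53, the gene of p53, was 1415, 1057, 1328, 1226 and 978 against 1069, 1224 and 1052 (0.10 ± 0.12, adjusted p = 0.571). Both overlapped between the groups. Among clock genes 4 of 17 rose and 3 fell, shares of 23.5% and 17.6%, near those of all genes, and the number lower was 1 without non-transferred library 3. Npas2, an activator of the clock, was 759, 879, 681, 617 and 686 against 375, 264 and 458, and Bhlhe40, a repressor, was 1948, 1727, 2015, 1866 and 1435 against 3083, 3682 and 2493 (log2 fold change 1.01 ± 0.16 and -0.77 ± 0.14, limma adjusted p = 0.00115 and 0.002). The hour at which each colon was taken is not given in the sources used here.

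Set against control, transferred colon differed in far fewer genes, 192 higher, or 1.14% of those tested, and 76 lower, or 0.453%, by the same limma model. This count varied widely with the libraries and the tool, from 11 without control library 2 to 831 without transferred library 5, and 1234 with DESeq2. By distance over all genes, transferred library 4 was nearer to the non-transferred mean (90.0) than to control (103), whereas libraries 1, 2, 3 and 5 were nearer to control, library 2 most of all (57.2 against 134). The distances are Euclidean, over log2(normalised count + 1) of the genes tested. In the plot of list medians the neutrophil, cytokine, interferon, class II, cytotoxic and T cell lists of transferred library 4 were the closest of its group to non-transferred colon, with a neutrophil median of -2.12 against -4.09 to -2.85 in the other transferred libraries. Red blood cell genes stood out in transferred library 1, with a list median of 2.56 against -1.19 to 0.33 in the other four, a list of which 4 of 7 genes were measured and none was called by limma, edgeR or DESeq2 or had a raw limma p under 0.05.

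**Figure D5:**
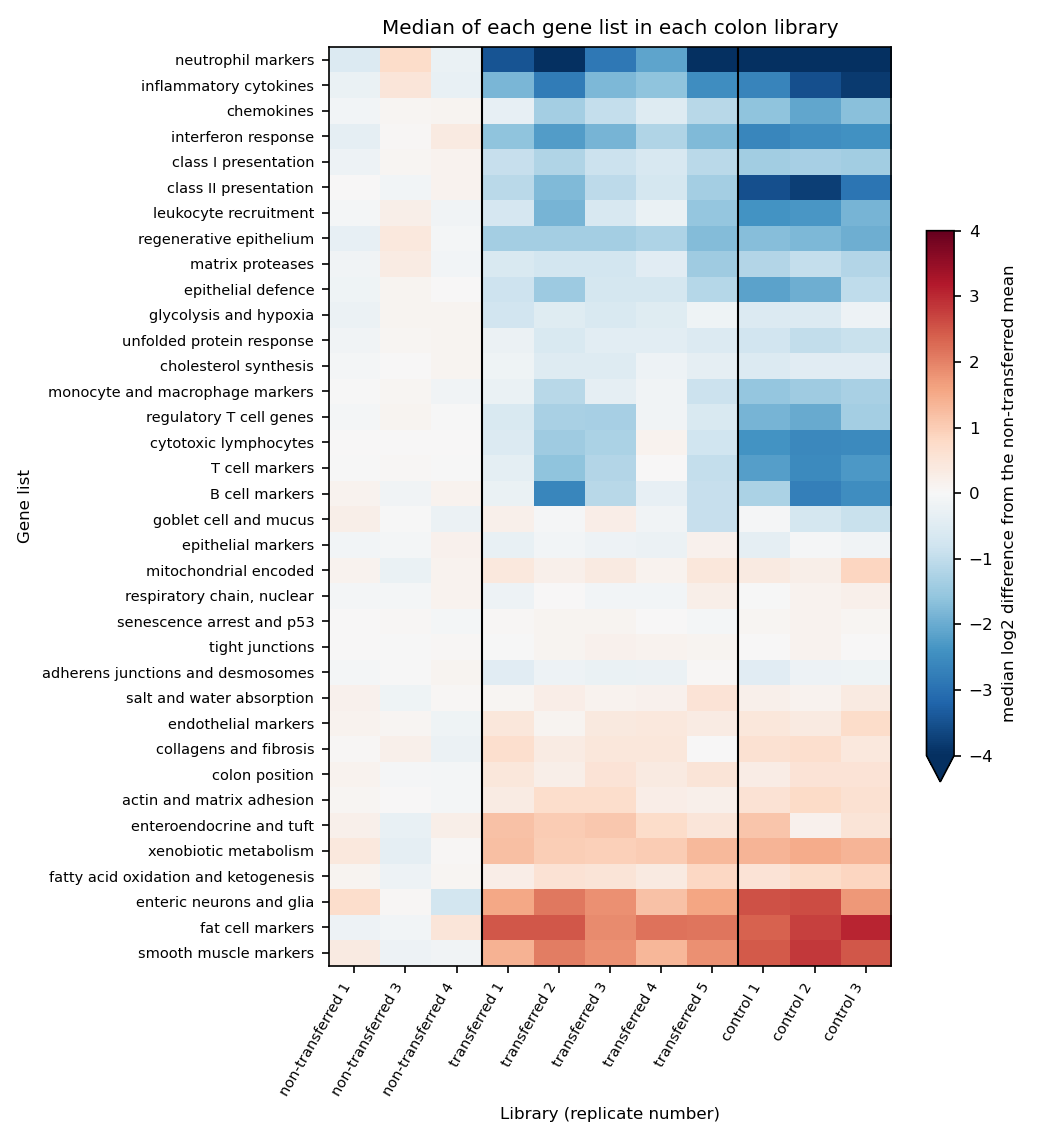
Median over the measured members of each gene list of the log2 difference from the non-transferred mean, for every colon library (columns; lists as rows), with blue below and red above that mean and the scale closed at -4 and 4. Transferred libraries take values between the non-transferred and control libraries for the class II and smooth muscle lists, and transferred library 4 has the palest neutrophil, class II and T cell lists of its group.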

How the data were processed

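Whole-colon RNA was sequenced in 11 libraries, and the authors deposited 1 table of normalised counts for all of them. Per the submitters' processing notes, HISAT2 2.2.1, SAMtools 1.13, HTSeq 1.99.2 and DESeq2 1.40.2 were used with GRCm39. Which annotation release and strand setting were used was not found in the sources read. The signal values deposited by the authors are read counts divided by 1 factor per library. They step in whole reads (100% of values within 0.05 of a whole read), so the reads were recovered and used for library totals and for edgeR 4.0.16 and DESeq2 1.42.0 as alternatives. Within-group library pairs differed beyond sampling noise, and none was counted as 1 sample. Transferred library 5 carries replicate number 5 in its description and another sample number in its title.

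Genes with a mean of at least 10 over the 11 columns were tested with limma 3.58.1 (R 4.3.3, lmFit and eBayes with trend) on log2(normalised count + 1), with group as the only term, all 11 libraries in 1 fit and Benjamini-Hochberg adjustment over all genes. A gene was called at an adjusted p under 0.05. The scripts were tested on simulated data with known shifts. Gene lists were described by counts and medians, with no test. Genes named were Tfam, Cd4, Foxp3 and genes the study names for colon or serum, the 12 largest rises and falls among called, non-overlapping genes with a mean of at least 50 in the higher group, up to 4 called members of each list by adjusted p, and up to 2 that moved against the list. Some genes that this rule names are not reported here. Other names are said to be chosen after their values were seen. Lists and named genes were chosen with earlier results of these data known. Gene names came from the GENCODE annotation of GRCm39 (99.2% of identifiers matched). A single value per library was compared by an exact two-sided permutation test. Alternatives changed the pseudocount, filter, scaling, tool, threshold, samples or covariates, or left out 1 library at a time.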

Additional observations from a re-analysis of the deposited data

Results flagged for a closer look

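In each group of 5 transferred libraries, a library was taken to stand apart where its gap to the nearest other library was over 0.71 of the range of the group (Dixon's critical value for 5). Of 263 gene values and list medians examined, 21 met this. Chance gives about 1 in 20 such groups.

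Transferred library 4 stood above the other transferred libraries for 10 genes: S100a8 at 52.4 normalised counts, S100a9 at 79.1, Ly6g at 38.1, Lcn2 at 240.1, Lat at 261, Cd3g at 274, Havcr2 at 54.3, Clca4b at 7972, Serpina10 at 39.1 and Bnip3 at 365. The mean of non-transferred colon was above the transferred mean for each of them. Transferred library 1 was the highest for Ccl7 (65.7), for the fat genes Car3 (3582) and Adrb3 (173) and for Cyp2e1 (401), a cytochrome P450 also made by fat cells. Transferred library 5 was the lowest for C1galt1 (1981), a glycosyltransferase of mucin synthesis, and the highest for Il1a (14.2) and Hoxa10 (341). It also gave the lowest list median of regenerative epithelium (-1.74 on the log2 scale from the non-transferred mean) and of matrix proteases (-1.44). Transferred library 2 was the highest for Gcnt3 (8691), another mucin glycosyltransferase, and for Hbegf (1763).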

How the results depend on the processing

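The number of genes called between transferred and non-transferred colon was 4023 or 3976 when called by a raw p below 0.05 with a size beyond 0.6 on the log2 scale, in limma or DESeq2, between 4348 and 5784 under the other settings that kept all libraries, and between 3078 and 5267 when single libraries were left out, lowest without non-transferred library 3. No gene called both in the report and in an alternative changed direction. Of 197 called genes named, 142 kept their call and direction in every alternative that tested them, 55 lost the call in at least 1 and 0 reversed. Most were tested in all 24 alternatives. Some were tested in only 22 or 23, because a gene without a value in an alternative was not counted there. The comparison with control was unstable: 177 genes with edgeR, 1234 with DESeq2, 145 without a variance trend, 23 with only these groups fitted, 1663 and 1823 at that raw p and size in limma and DESeq2, and 11 to 831 with single libraries left out. The cause was not tested. No paired structure was seen between transferred and non-transferred colon: deviations of libraries with the same number correlated at -0.03, 0.11 and 0.01. Pairing with the control libraries was not examined this way. A fit with the replicate number as a block called 5039 genes between transferred and non-transferred colon (4254 of them also called without it). Between transferred colon and control it called 930, beside 268 without the block.

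Of 10 named genes that were not called, 4 changed sign. Foxp3 had log2 fold changes of 0.0039 with a pseudocount of 10, 0.21 in edgeR, 0.20 in DESeq2 (by either rule), 0.50 with the block and -0.37 to 0.33 with single libraries left out. Cldn1 had -0.19 with quantile normalisation, and Cdkn1a 0.023, or -0.27 to 0.20 with single libraries left out. Muc2 had 0.13 in edgeR, 0.12 in DESeq2 (by either rule), 0.50 with the block and -0.45 to 0.38 with single libraries left out. Tjp1 was called lower with the block (-0.35, limma adjusted p = 0.0138). The block left 1 T cell marker, 8 chemokines and 7 macrophage genes called lower in place of 6, 13 and 12. The difference in mitochondrial share was 1.26 to 1.71 percentage points when single libraries were left out, each at the smallest p that the remaining libraries allow in the exact permutation test (0.0571 or 0.0952), which lies above 0.05 by construction. Depth was even between libraries, and it limits genes of a few reads, such as Il6 and Ifng in transferred colon.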
